A study of Mus musculus with 9 samples.

Results

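The mitochondrially encoded genes are the genes of the circular DNA inside mitochondria. They were taken as the rows of the count tables whose Ensembl identifier has a GENCODE M21 symbol starting with mt- on chromosome M. GENCODE lists 37 such genes, of which 22 are tRNA genes. The tables held 19 of them among 29678 genes: all 13 protein genes, both rRNA genes and the tRNA genes mt-Tc, mt-Te, mt-Tt and mt-Tp. The other 18 tRNA genes were not analysed here. Of the 19 genes, 16 had enough counts for a test, and counts of members given below refer to these 16 unless stated. Of the other 3, mt-Tc held 6 counts summed over 8 libraries, and mt-Te and mt-Tt held 0 counts in each library.

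RNA of mouse kidney was measured 24 h after reperfusion in 3 groups. BHBNa_bIRI kidneys were pretreated with sodium beta-hydroxybutyrate (BHB), a ketone body that serves as fuel in fasting, and then underwent bilateral ischemia-reperfusion injury. The bIRI group had the same injury without BHB, and the Sham group had sham surgery. The labels name 3 libraries per group and give no dose, strain, age, sex or number of mice, so p-values measure only the spread between these libraries. In all 29678 genes, bIRI replicate 2 held the rounded-down average of the other bIRI tables, replicates 1 and 3. That table was left out, and 8 libraries were compared. Total counts ranged from 33477985 to 45909063 per library.

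The kidney label was checked against tubule markers. Levels are given in CPM, counts scaled to a library total adjusted by its trimmed mean of M-values factor. CPM are therefore not shares of all counts. Both injured groups held less proximal tubule RNA than Sham. The summed level of 6 proximal tubule markers was 1525 to 1686 CPM in BHBNa_bIRI and 1358 and 1184 CPM in bIRI. In Sham it was 10991 to 12350 CPM, and 6 of 6 markers fell in each injured group against Sham. The summed level of 3 injured tubule markers was 2820 to 3440 CPM in BHBNa_bIRI, 5083 and 1576 CPM in bIRI, and 4.50 to 8.73 CPM in Sham. In whole kidney, fewer cells of a type and less RNA per cell cannot be told apart.

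Mitochondrial DNA is transcribed from both strands into long precursors that are cut into separate RNAs, largely at the tRNAs that lie between the other genes. The protein genes encode core subunits of oxidative phosphorylation: mt-Nd1 to mt-Nd6 and mt-Nd4l belong to complex I, mt-Cytb to complex III, mt-Co1 to mt-Co3 to complex IV (cytochrome c oxidase), and mt-Atp6 and mt-Atp8 to complex V (the ATP synthase). All other subunits of these complexes come from nuclear genes. The kidney tubule is rich in mitochondria because solute transport uses much ATP. The libraries were made from RNA captured with oligo(dT), which binds poly(A) tails. Most mitochondrial messenger RNAs carry such tails, and the rRNAs carry short ones.

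Features of the mitochondrial sequence that bear on counting are shown first. All sequences were copied from the GENCODE M21 transcripts on GRCm38 (mm10). The last 60 bases of mt-Atp8 (chrM:7910-7969, plus strand) are shown because the last 43 of them, in capitals, also form the start of mt-Atp6. Reads within the capitals cannot be given to either gene by sequence. Likewise mt-Nd4l and mt-Nd4 overlap by 7 bases, and mt-Nd5 and mt-Nd6, which lie on opposite strands, by 14 bases.
mt-Atp8 end: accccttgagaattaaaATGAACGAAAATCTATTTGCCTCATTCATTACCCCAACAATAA

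The ends of mt-Co3 (chrM:9361-9390), mt-Nd4 (chrM:11515-11544) and mt-Cytb (chrM:15259-15288), all on the plus strand, are shown because these 3 genes stop at a lone T, in capitals. It becomes a stop codon only with the A residues of the tail that oligo(dT) binds. The other protein genes end in a complete stop codon.
mt-Co3 end: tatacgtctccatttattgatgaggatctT
mt-Nd4 end: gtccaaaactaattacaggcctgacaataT
mt-Cytb end: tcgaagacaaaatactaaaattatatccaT

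The nuclear genome holds copies of mitochondrial DNA. A block on chromosome 1 (chr1:24611535-24616197, minus strand) carries 7 annotated pseudogenes that match mitochondrial genes at 99.7% identity or more. Gm28661 matches mt-Co2, Gm10925 matches mt-Atp6, Gm28437 matches mt-Co3, Gm28438 matches mt-Nd3 and Gm10222 matches mt-Nd4l, each over nearly the whole mitochondrial gene. Gm28439 matches the first 876 bases of mt-Nd4. Gm29216 matches mt-Co1 from base 1063 to its end at base 1545, and the start of this matching part is in capitals in the next pair, at chrM:6360-6419 (plus strand) and chr1:24616159-24616197 (minus strand). The pair is shown because a read inside the matching part can be placed by sequence only if it covers the 1 differing base, A1066T, counted from 1 at the first base of mt-Co1.
mt-Co1: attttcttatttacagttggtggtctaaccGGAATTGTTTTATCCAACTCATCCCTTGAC
Gm29216: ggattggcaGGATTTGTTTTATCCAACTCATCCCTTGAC

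The 345 aligned bases of mt-Nd3 and Gm28438 also differ at 1 base, T3C, counted from 1 at the first base of mt-Nd3. That base is in capitals in the first 28 bases of both genes, at chrM:9459-9486 (plus strand) and chr1:24613092-24613119 (minus strand).
mt-Nd3: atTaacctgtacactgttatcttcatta
Gm28438: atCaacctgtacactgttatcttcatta

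The protein genes copied over nearly their whole length, and mt-Atp8 between them, had the lowest levels per length among the protein genes. The share of windows of 100 bases that occurred unchanged in an annotated nuclear transcript was 97.6% to 99.9% for mt-Co2, mt-Atp6, mt-Co3, mt-Nd3 and mt-Nd4l, 60.8% for mt-Nd4, 30.8% for mt-Co1, 3.19% for mt-Nd2 and 0% for the remaining protein and rRNA genes. mt-Atp8, at 0%, lies where the nuclear block has a gap of 233 bases between Gm10925 and Gm28661 with no annotated gene. The mitochondrial DNA has 230 bases between mt-Co2 and mt-Atp6. The median level over 8 libraries was 45296 CPM per kb for mt-Co1, 21479 for mt-Nd1, 19744 for mt-Cytb, 10612 for mt-Nd2, 8183 for mt-Nd4, 5486 for mt-Nd5 and 3106 for mt-Nd6. The rRNA genes mt-Rnr1 and mt-Rnr2, at 0% of windows, had medians of 1108 and 732 CPM per kb. The 6 protein genes inside the block, mt-Co2, mt-Atp8, mt-Atp6, mt-Co3, mt-Nd3 and mt-Nd4l, had medians of 15.2 to 1433 CPM per kb. These lay below the medians of the 7 other protein genes, which include mt-Nd4 and mt-Co1, copied in part. Together the 6 genes held 0.327% to 1.66% of the mitochondrial counts of a library. How reads with several equal alignments were counted is not given in the sources used here, and its part in these levels was not tested.

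**Figure D1:**
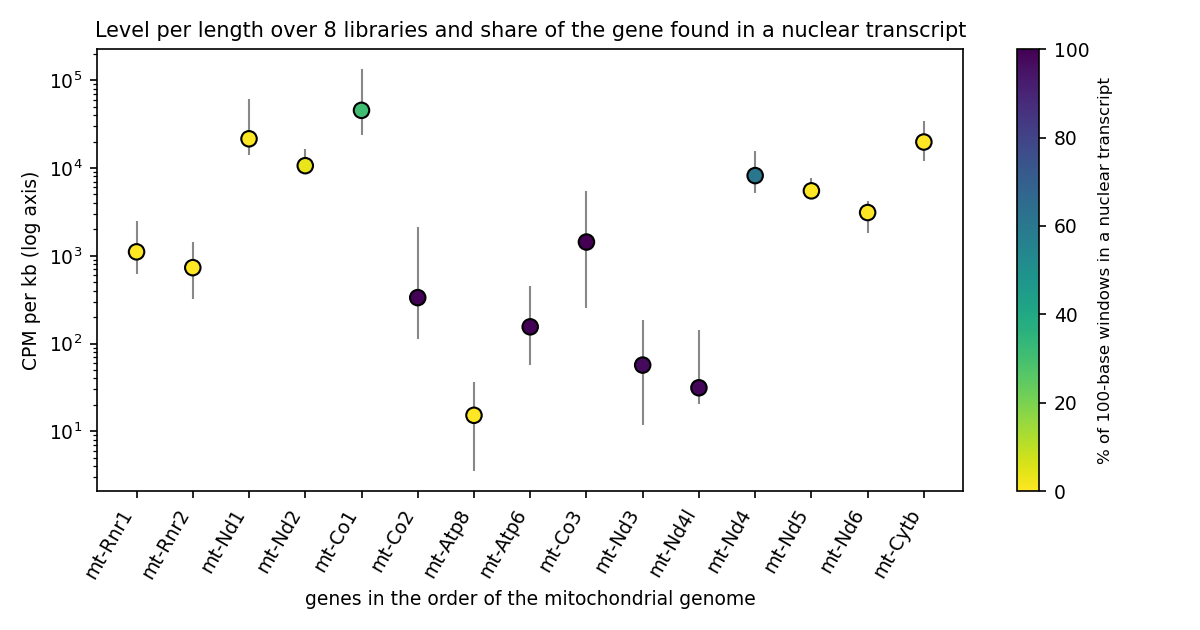
Level per length of the 13 protein and 2 rRNA genes in the order of the mitochondrial genome, in CPM per kb on a log axis. Points are medians over 8 libraries, lines run from the lowest to the highest library, and colour gives the share of 100-base windows found in a nuclear transcript: the 5 genes at 97.6% or more, with mt-Atp8 between them, lie at 15.2 to 1433 CPM per kb, and the other protein genes at 3106 to 45296.

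The mitochondrial share of all counts was highest in BHBNa_bIRI and lowest in Sham. It was 24.0%, 24.7% and 30.3% in BHBNa_bIRI replicates 1, 2 and 3, 15.9% in each of bIRI replicates 1 and 3, and 11.3%, 11.2% and 13.3% in Sham replicates 1, 2 and 3. The 3 ranges did not overlap. The mean was 26.3% ± 3.45 (SD, n = 3) in BHBNa_bIRI, 15.9% over both bIRI libraries and 11.9% ± 1.21 (SD, n = 3) in Sham. BHBNa_bIRI was higher than bIRI by 10.4 percentage points and higher than Sham by 14.4 points, and bIRI was higher than Sham by 3.95 points. The widest 95% exact binomial interval of these shares reached 0.0135 points to either side and covers counting error only, so the spread between libraries sets the precision. With 3 libraries against 2 an exact permutation test cannot go below p = 0.2, and with 3 against 3 not below p = 0.1, so shares and ratios are compared here by whether the groups overlap.

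A single gene held most of the difference between the injured groups. mt-Co1, the catalytic subunit of cytochrome c oxidase, took 15.1%, 13.4% and 17.0% of all counts in BHBNa_bIRI, 6.97% and 4.96% in bIRI, and 5.94%, 5.94% and 6.78% in Sham. Its difference of 9.21 points made up 88.2% of the difference between BHBNa_bIRI and bIRI. Without mt-Co1 the mitochondrial share was 8.90%, 11.3% and 13.3% in BHBNa_bIRI, 8.96% and 10.9% in bIRI, and 5.35%, 5.25% and 6.55% in Sham. The injured groups then overlapped, and both still lay above Sham. These shares, and those of the complexes that follow, are parts of all counts, which still include mt-Co1. They are not scaled by trimmed mean of M-values factors, which were 1.11 and 1.37 in bIRI and 0.830 to 1.03 in BHBNa_bIRI. On the CPM scale, 10 of 16 members, mt-Co1 included, lay higher in BHBNa_bIRI than in bIRI without overlap. Over all genes 46.0% did not overlap, and 22.2% did not overlap and were higher. Between bIRI and Sham the mean share of mt-Co1 differed by -0.25 points and the ranges overlapped, so the difference of 3.95 points lay in the other members.

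The shares of the other complexes separated injured from sham kidneys. The 7 complex I genes held 5.79%, 7.50% and 9.15% of counts in BHBNa_bIRI, 6.13% and 7.18% in bIRI, and 3.79%, 3.75% and 4.58% in Sham. mt-Cytb, the cytochrome b of complex III, held 2.29%, 3.23% and 3.22% in BHBNa_bIRI, 2.40% and 3.40% in bIRI, and 1.30%, 1.32% and 1.71% in Sham. For both, the injured groups overlapped and lay above Sham. The rRNAs held 0.423%, 0.335% and 0.362% in BHBNa_bIRI, 0.294% and 0.244% in bIRI, and 0.104%, 0.110% and 0.150% in Sham, with no overlap among the 3 groups. The 7 members with under 5% of their windows in a nuclear transcript and outside the block (mt-Rnr1, mt-Rnr2, mt-Nd1, mt-Nd2, mt-Nd5, mt-Nd6 and mt-Cytb) together held 9.16% ± 1.92 (SD, n = 3) of counts in BHBNa_bIRI, 8.56% over both bIRI libraries and 4.82% ± 0.568 (SD, n = 3) in Sham. Here too BHBNa_bIRI and bIRI overlapped and both lay above Sham.

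**Figure D2:**
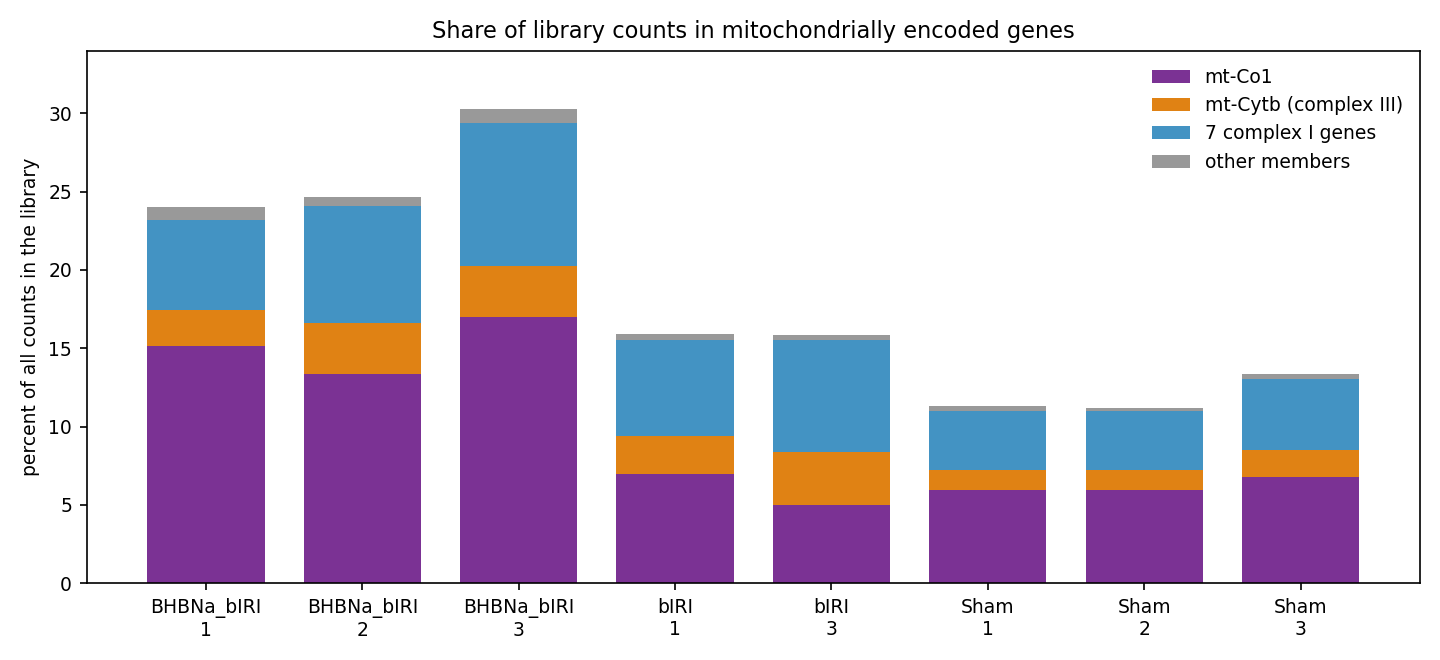
Percent of all counts of each library in mitochondrially encoded genes, stacked by mt-Co1, mt-Cytb, the 7 complex I genes and all other members, for 3 BHBNa_bIRI, 2 bIRI and 3 Sham libraries. The mt-Co1 part is 13.4% to 17.0% in BHBNa_bIRI, 4.96% and 6.97% in bIRI and 5.94% to 6.78% in Sham.

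Single genes were tested with edgeR's quasi-likelihood test over 17967 genes on trimmed mean of M-values (TMM) scaling, and a gene is said to rise or fall where its p-value, adjusted over all genes by the Benjamini-Hochberg method, was under 0.05. Between BHBNa_bIRI and bIRI, mt-Co1, mt-Co3 and mt-Tp rose and no member fell, that is 3 of 16 called, where 13.5% of all genes tested were called 4.88% higher and 8.65% lower. In 10 of 16 members all BHBNa_bIRI libraries lay above both bIRI libraries, and in the other 6 members the groups overlapped. Over all genes 46.0% had groups that did not overlap, and 22.2% did not overlap and were higher. The median log2 fold change was 0.78 over the members and -0.05 over all genes.

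These 3 calls were near the limit of the design. The number of members called was 0 without Sham 1, Sham 2, BHBNa_bIRI 1 or BHBNa_bIRI 3, 1 without Sham 3 and 3 without BHBNa_bIRI 2. Fits without a bIRI library leave a lone one in that group and are not counted here. DESeq2 called 8 members, and over the whole table it called 4441 of 17603 genes in this comparison. A fit of only BHBNa_bIRI and bIRI called 0 members. The same held for the whole table, where edgeR made 2431 calls in this comparison. It called 1026 of 17893 genes without Sham 3 and 1154 of 17789 without BHBNa_bIRI 2. There were 0 without Sham 1, Sham 2 or BHBNa_bIRI 1, and 1 without BHBNa_bIRI 3 or with only its own groups fitted. Every call given below for BHBNa_bIRI against bIRI therefore depends on these libraries. Without normalization factors the median over all genes moved by -0.40 in this comparison, the higher share of all calls was 10.8% in place of 36.0%, and 13 rather than 14 members lay above 0, with mt-Nd5 the member that changed sign.

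Between bIRI and Sham none of the 16 members was called by edgeR, where 35.1% of all genes were called and 18.9% were called higher. At an unadjusted p under 0.05 there were 4 members, mt-Rnr1, mt-Rnr2, mt-Atp8 and mt-Nd6. At least 35.1% of all genes passed that threshold too, as an adjusted p is never below the unadjusted one. DESeq2 called 4 members, where it called 7198 of 17952 genes over the whole table. Groups did not overlap in 6 of 16 members, against 55.9% of all genes. The median log2 fold change was 0.50 over the members and 0.08 over all genes. With trends in GC content and transcript length removed it was 0.07 over the members and 0.14 over all genes, and 9 members lay above 0 rather than 13. The count of members called was 2 of 16 without Sham 3, a fit that called 4577 of 17893 genes over the whole table. Without normalization factors the median over all genes moved by 0.42, the higher share of all calls was 78.2% in place of 53.9%, and 14 rather than 13 members lay above 0, with mt-Tp the member that changed sign.

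Between BHBNa_bIRI and Sham, 12 of 16 members rose and none fell, where 43.6% of all genes were called and 21.3% were called higher. The 4 members not called were mt-Nd2, mt-Nd5, mt-Nd6 and mt-Atp8. In 12 of 16 members all BHBNa_bIRI libraries lay above all Sham libraries. Over all genes 64.8% had groups that did not overlap, 32.6% higher and 32.2% lower. The median log2 fold change was 1.27 over the members and 0.04 over all genes. The number of members called was 5 without Sham 1, 4 without Sham 2 and 6 without BHBNa_bIRI 3. Over all genes 5408 of 17893, 5455 of 17859 and 6073 of 17819 were called in these fits. When trends in GC content and transcript length were removed, 4 of 16 members and 8274 of 17967 genes were called. In that fit the median over the members was 0.69, and mt-Nd2, mt-Nd6, mt-Atp8 and mt-Tp lay below 0, at -0.06, -0.58, -0.61 and -0.24. This comparison shares its libraries with the other comparisons, so the 3 sets of values are given side by side.

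**Figure D3:**
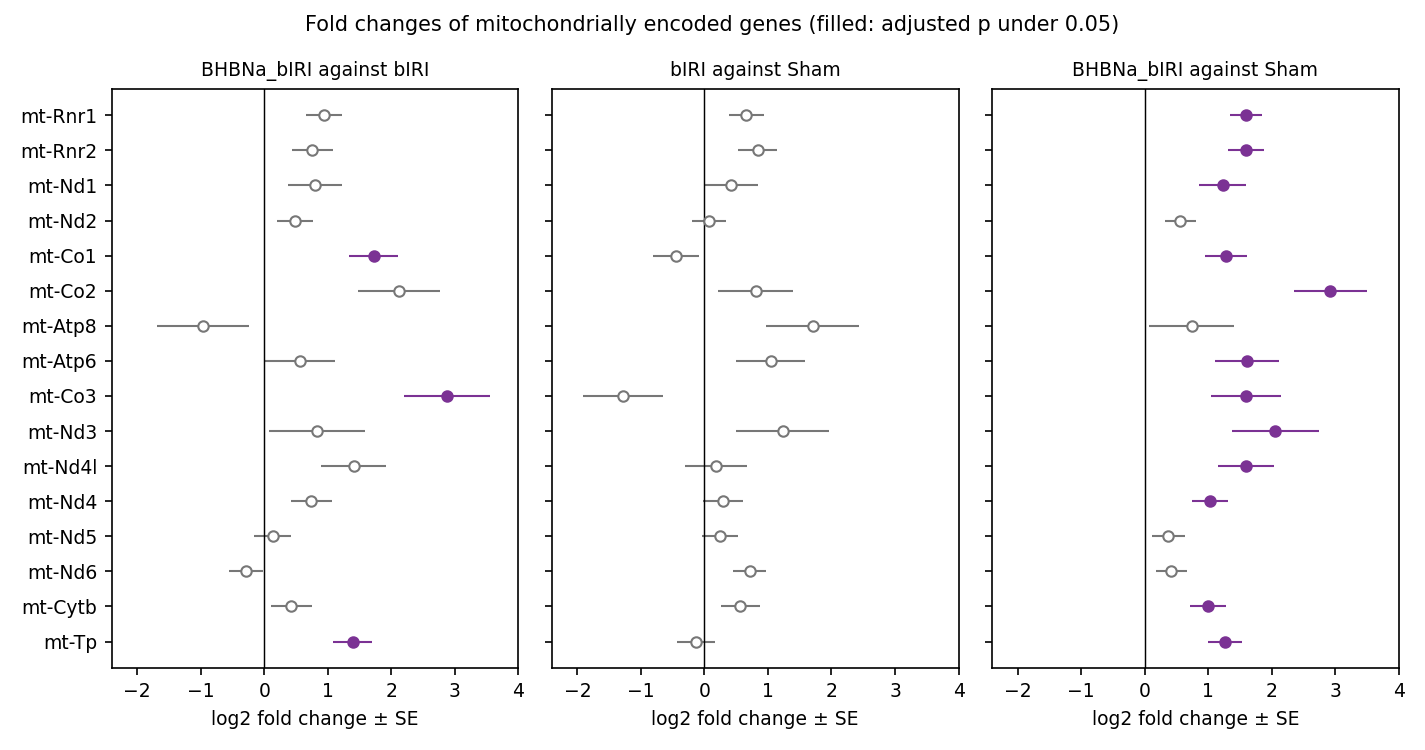
Log2 fold changes of the 16 tested members in the order of the mitochondrial genome (edgeR, 8 libraries), for BHBNa_bIRI against bIRI, bIRI against Sham and BHBNa_bIRI against Sham. Points are estimates, bars are standard errors and filled points have an adjusted p under 0.05: 3 members in the first panel, 0 in the second and 12 in the third.

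Complex IV held the largest differences between the injured groups. mt-Co1 (chrM:5328-6872) measured 155976, 129652 and 205225 CPM in BHBNa_bIRI, 62858 and 36226 CPM in bIRI, and 63771, 62223 and 76192 CPM in Sham. All BHBNa_bIRI libraries were at least 129652 CPM, all other libraries were at most 76192 CPM, and bIRI overlapped Sham. mt-Co1 was 3.30-fold higher in BHBNa_bIRI than in bIRI (log2 fold change 1.72, SE 0.38, edgeR adjusted p = 0.0306) and rose against Sham (1.28, SE 0.33, edgeR adjusted p = 0.0115), a call lost without Sham 1 or Sham 2. The log2 fold change was -0.44 (SE 0.36) for bIRI against Sham, which was not called. Against bIRI, the estimate of mt-Co1 ranged from 1.38 to 2.23 with each library left out in turn. Its call was lost without any of the Sham libraries, without BHBNa_bIRI 1 and without BHBNa_bIRI 3, and its adjusted p ranged from 2.27e-06 to 0.131 over all alternatives.

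mt-Co3, a core subunit next to the catalytic center, measured 2951, 1398 and 4259.9 CPM in BHBNa_bIRI, 580.2 and 199 CPM in bIRI, and 1502, 491 and 849 CPM in Sham. All BHBNa_bIRI libraries lay above both bIRI libraries, and the Sham libraries overlapped both injured groups. mt-Co3 was 7.36-fold higher in BHBNa_bIRI than in bIRI (log2 fold change 2.88, SE 0.68, edgeR adjusted p = 0.0332). The call of mt-Co3 was lost without any of the Sham libraries, without bIRI 3, without BHBNa_bIRI 1 and without BHBNa_bIRI 3, where its adjusted p over all alternatives ranged from 3.51e-05 to 0.181. Against Sham it rose by 1.60 (SE 0.55, edgeR adjusted p = 0.0394) although the groups overlapped, and this call was kept only without Sham 1 or without BHBNa_bIRI 2. For bIRI against Sham the log2 fold change was -1.28 (SE 0.62) and was not called.

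mt-Co2, which carries the copper site that takes electrons from cytochrome c, measured 655, 455 and 1446 CPM in BHBNa_bIRI, 313 and 78.7 CPM in bIRI, and 77.5, 116 and 143 CPM in Sham. BHBNa_bIRI lay above both other groups, and the bIRI libraries differed so much that their range held that of 2 Sham libraries. It rose 7.59-fold against Sham (log2 fold change 2.92, SE 0.57, edgeR adjusted p = 0.00321), a call that was kept under all alternatives run. The log2 fold change of mt-Co2 was 2.12 (SE 0.65, edgeR adjusted p = 0.0570) for BHBNa_bIRI against bIRI and 0.81 (SE 0.59) for bIRI against Sham, and neither was called. Over the 3 complex IV genes the median log2 fold change was 2.12 for BHBNa_bIRI against bIRI, -0.44 for bIRI against Sham and 1.60 for BHBNa_bIRI against Sham.

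**Figure D4:**
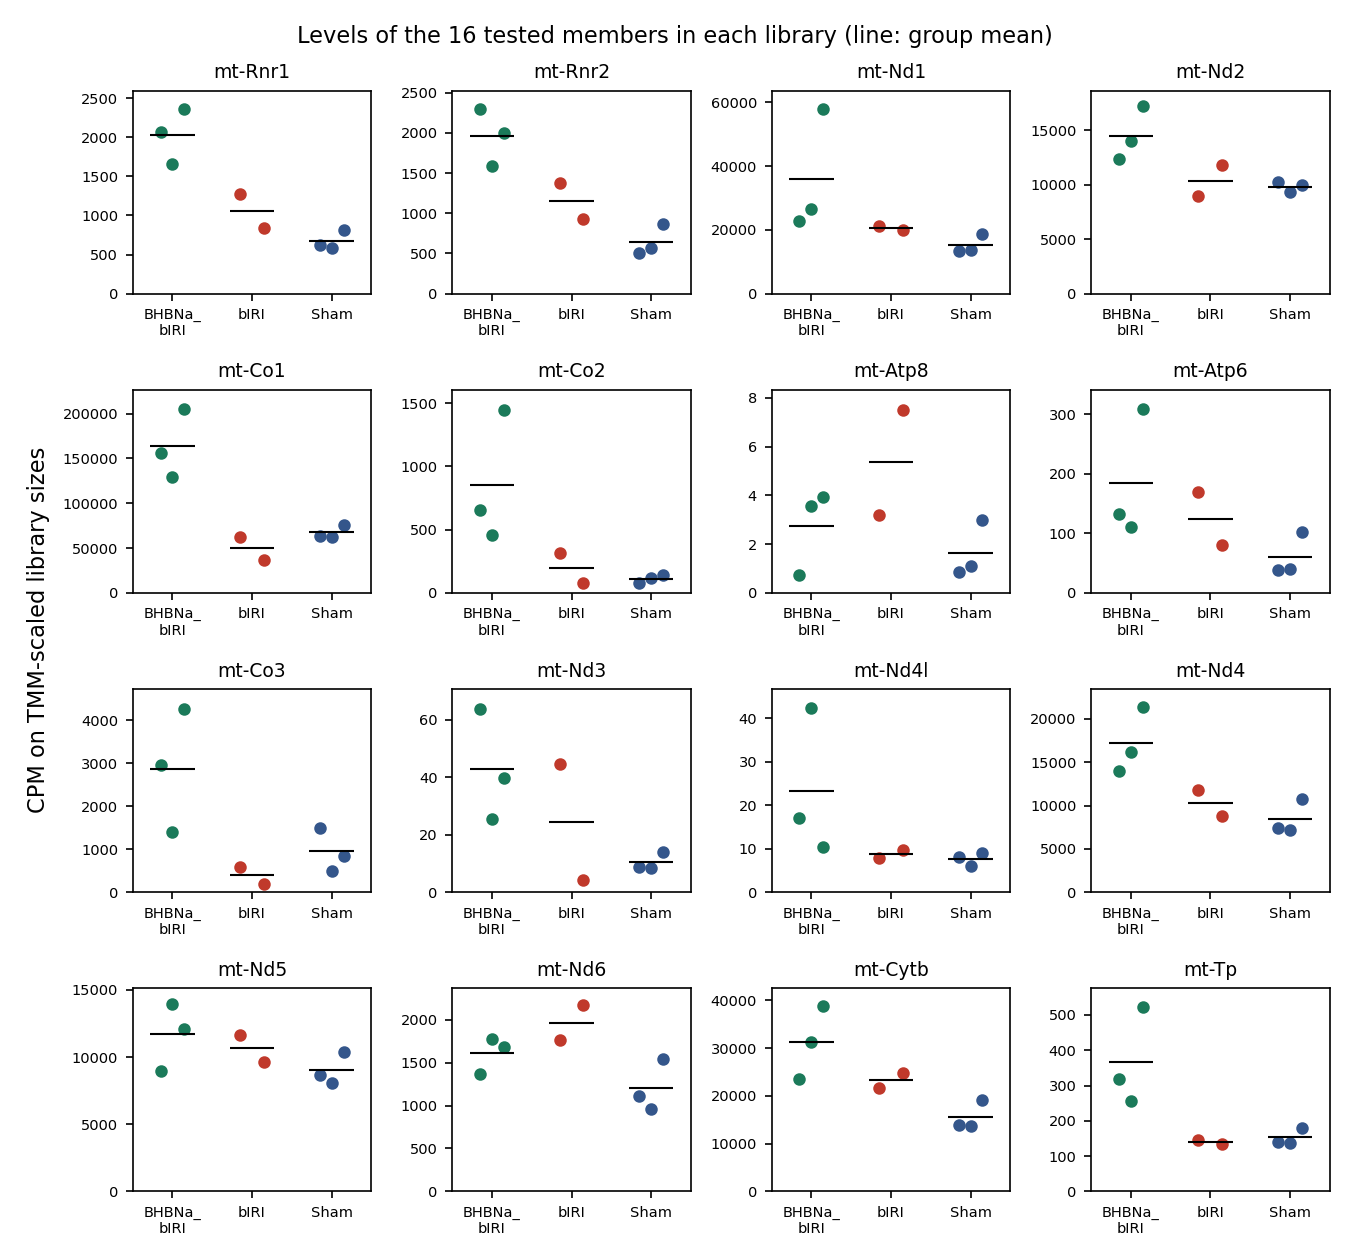
CPM on TMM-scaled library sizes of the 16 tested members in each library, with 3 BHBNa_bIRI, 2 bIRI and 3 Sham libraries from left to right in each panel. Points are libraries and lines are group means; mt-Co1, for example, lies at 129652 to 205225 CPM in BHBNa_bIRI, 36226 and 62858 CPM in bIRI and 62223 to 76192 CPM in Sham.

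The complex I genes were not called between the injured groups, with a median log2 fold change of 0.74 over its 7 genes. mt-Nd1, a membrane subunit at the quinone site, measured 22953, 26668 and 57913 CPM in BHBNa_bIRI, 21142 and 19970 CPM in bIRI, and 13271, 13818 and 18860 CPM in Sham. The groups did not overlap, but BHBNa_bIRI replicate 3 stood far above the others of its group. mt-Nd1 rose against Sham (1.23, SE 0.38, edgeR adjusted p = 0.0257), and without BHBNa_bIRI 3 or without Sham 1 or Sham 2 it was not called. Against bIRI its log2 fold change was 0.80 (SE 0.43), and bIRI against Sham gave 0.42 (SE 0.41).

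mt-Nd4, a proton-pumping membrane subunit, measured 13996, 16229 and 21413 CPM in BHBNa_bIRI, 11795 and 8831 CPM in bIRI, and 7365, 7183 and 10758 CPM in Sham. All BHBNa_bIRI libraries lay above all others, and bIRI and Sham overlapped. mt-Nd4 rose against Sham (1.03, SE 0.29, edgeR adjusted p = 0.0171), a call lost without Sham 1, Sham 2 or BHBNa_bIRI 3. The log2 fold change was 0.74 (SE 0.32) against bIRI and 0.29 (SE 0.32) for bIRI against Sham, neither called.

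mt-Nd2 and mt-Nd5, the other large pumping subunits, differed less. mt-Nd2 measured 12332, 14003 and 17181 CPM in BHBNa_bIRI, 8921 and 11791 CPM in bIRI, and 10239.6, 9322 and 9945 CPM in Sham. BHBNa_bIRI lay above both other groups, and the range of bIRI enclosed that of Sham. mt-Nd5 measured 8998, 13971 and 12082 CPM in BHBNa_bIRI, 11646 and 9657 CPM in bIRI, and 8636, 8055 and 10355 CPM in Sham. For mt-Nd5 each group overlapped the others. The log2 fold changes of mt-Nd2 were 0.49 (SE 0.28), 0.07 (SE 0.27) and 0.56 (SE 0.25) for BHBNa_bIRI against bIRI, bIRI against Sham and BHBNa_bIRI against Sham, and those of mt-Nd5 were 0.13 (SE 0.29), 0.24 (SE 0.29) and 0.37 (SE 0.26), and none was called.

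mt-Nd6 is the complex I subunit encoded on the opposite strand, and in human cells its messenger RNA is known to lack a poly(A) tail. It measured 1370.35, 1777 and 1685 CPM in BHBNa_bIRI, 1764 and 2172 CPM in bIRI, and 1114, 955 and 1539 CPM in Sham. bIRI lay above Sham, and BHBNa_bIRI overlapped both. The log2 fold change was -0.29 (SE 0.27) for BHBNa_bIRI against bIRI, 0.71 (SE 0.27, edgeR adjusted p = 0.0637) for bIRI against Sham and 0.42 (SE 0.24) for BHBNa_bIRI against Sham. None was called. Whether the counting used strand is not given in the sources used here, so reads of mt-Nd6 and of RNA from the other strand cannot be told apart.

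The small subunits mt-Nd3 and mt-Nd4l lie inside the copied block and had few counts. mt-Nd3 measured 63.8, 25.6 and 39.8 CPM in BHBNa_bIRI, 44.5 and 4.12 CPM in bIRI, and 8.60, 8.56 and 13.9 CPM in Sham. The bIRI libraries lay on either side of the Sham range, while BHBNa_bIRI lay above Sham. mt-Nd4l measured 16.9, 42.3 and 10.3 CPM in BHBNa_bIRI, 7.84 and 9.66 CPM in bIRI, and 8.001, 6.07 and 8.97 CPM in Sham. All BHBNa_bIRI libraries were above all others for mt-Nd4l. Both rose against Sham, mt-Nd3 by 2.06 (SE 0.69, edgeR adjusted p = 0.0360) and mt-Nd4l by 1.60 (SE 0.44, edgeR adjusted p = 0.0171). As single libraries were left out, the call of mt-Nd3 was kept without bIRI 1, bIRI 3 or BHBNa_bIRI 2, and that of mt-Nd4l without Sham 3, BHBNa_bIRI 1 or BHBNa_bIRI 3, and each was lost in the other 5 fits. For bIRI against Sham the log2 fold change of mt-Nd3 was 1.23 (SE 0.73) and ran from -1.40 to 2.11 as single libraries were left out.

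mt-Cytb (chrM:14145-15288), the single mitochondrially encoded subunit of complex III, measured 23566, 31281 and 38844 CPM in BHBNa_bIRI, 21607 and 24800 CPM in bIRI, and 13950, 13785 and 19216 CPM in Sham. Both injured groups lay above Sham and overlapped each other. mt-Cytb rose in BHBNa_bIRI against Sham (1.00, SE 0.29, edgeR adjusted p = 0.0193), a call lost without Sham 1, Sham 2 or BHBNa_bIRI 3. The log2 fold change was 0.43 (SE 0.32) for BHBNa_bIRI against bIRI and 0.57 (SE 0.31) for bIRI against Sham, neither called.

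The complex V genes had low counts. mt-Atp6, which forms part of the proton channel, measured 133, 109.8 and 308 CPM in BHBNa_bIRI, 169 and 79.7 CPM in bIRI, and 38.8, 40.6 and 101 CPM in Sham. Only BHBNa_bIRI and Sham did not overlap, and mt-Atp6 rose in that comparison (1.61, SE 0.50, edgeR adjusted p = 0.0281), a call kept only without Sham 3, BHBNa_bIRI 1 or BHBNa_bIRI 2. mt-Atp8, a small stator subunit, had 31, 166 and 145 counts in BHBNa_bIRI, 147 and 345 counts in bIRI, and 34, 48 and 116 counts in Sham. bIRI lay above Sham, and BHBNa_bIRI overlapped both. The log2 fold change of mt-Atp8 was -0.97 (SE 0.72) for BHBNa_bIRI against bIRI, 1.71 (SE 0.73, edgeR adjusted p = 0.0965) for bIRI against Sham and 0.74 (SE 0.67) for BHBNa_bIRI against Sham. No call was made for it.

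The rRNAs of the mitochondrial ribosome, like mt-Nd1, separated the 3 groups in order. mt-Rnr1, the small-subunit rRNA (chrM:70-1024), measured 2066, 1659.7 and 2362 CPM in BHBNa_bIRI, 1271 and 845 CPM in bIRI, and 616, 585 and 811 CPM in Sham. mt-Rnr2, the large-subunit rRNA (chrM:1094-2675), measured 2294, 1586 and 2001 CPM in BHBNa_bIRI, 1381 and 934 CPM in bIRI, and 505, 566 and 869 CPM in Sham. For both genes every BHBNa_bIRI library was above every bIRI library, and every bIRI library was above every Sham library. Against Sham, BHBNa_bIRI rose by 1.60 for mt-Rnr1 (SE 0.25, edgeR adjusted p = 0.00104) and by 1.60 for mt-Rnr2 (SE 0.28, edgeR adjusted p = 0.00189), and these calls were kept under all alternatives run. The log2 fold changes of mt-Rnr1 were 0.94 (SE 0.28, edgeR adjusted p = 0.0552) for BHBNa_bIRI against bIRI and 0.66 (SE 0.27, edgeR adjusted p = 0.0883) for bIRI against Sham. Those of mt-Rnr2 were 0.76 (SE 0.32, edgeR adjusted p = 0.122) and 0.84 (SE 0.30, edgeR adjusted p = 0.0573), so none of these 4 was called. Libraries selected on poly(A) tails measure only the tailed part of rRNA.

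mt-Tp, the proline tRNA gene (chrM:15356-15422, minus strand), was the tRNA gene with counts in every library, and its 67 bases are shown in full because it was called. No base is in capitals.
mt-Tp: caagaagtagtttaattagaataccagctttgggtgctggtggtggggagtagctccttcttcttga

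mt-Tp measured 319, 257 and 524 CPM in BHBNa_bIRI, 144 and 134 CPM in bIRI, and 141, 137 and 181 CPM in Sham. BHBNa_bIRI lay above both other groups, which overlapped. mt-Tp was 2.63-fold higher in BHBNa_bIRI than in bIRI (log2 fold change 1.40, SE 0.31, edgeR adjusted p = 0.0303) and rose against Sham (1.26, SE 0.27, edgeR adjusted p = 0.00450). The first call was lost without Sham 1, Sham 2, bIRI 3, BHBNa_bIRI 1 or BHBNa_bIRI 3, and the adjusted p of mt-Tp ranged from 7.41e-05 to 0.615 over all alternatives. With length and GC trends removed, its log2 fold change against Sham was -0.24. The estimate for bIRI against Sham was -0.13 (SE 0.29) and was not called. Mature tRNAs have no poly(A) tail, and which RNA these reads came from was not tested.

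Within the mitochondrial counts alone, bIRI differed from both other groups through mt-Co1. mt-Co1 made up 63.0%, 54.2% and 56.2% of mitochondrial counts in BHBNa_bIRI, 43.8% and 31.3% in bIRI, and 52.6%, 53.1% and 50.8% in Sham. All bIRI values lay below all others, and BHBNa_bIRI lay above Sham. mt-Cytb made up 9.51%, 13.1% and 10.6% in BHBNa_bIRI, 15.04% and 21.4% in bIRI, and 11.5%, 11.8% and 12.8% in Sham, so that both bIRI libraries lay above all others. The mean differed by 20.3 percentage points for mt-Co1 and by -7.16 points for mt-Cytb between BHBNa_bIRI and bIRI, and by -14.6 points and 6.21 points between bIRI and Sham.

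Other members showed other orders of the groups. mt-Nd5 made up 3.63%, 5.84% and 3.31% of mitochondrial counts in BHBNa_bIRI, 8.11% and 8.34% in bIRI, and 7.12%, 6.87% and 6.91% in Sham. mt-Nd6 made up 0.553%, 0.743% and 0.461% in BHBNa_bIRI, 1.23% and 1.88% in bIRI, and 0.919%, 0.814% and 1.03% in Sham. For both, BHBNa_bIRI was lowest, bIRI was highest and no groups overlapped. mt-Nd2 made up 4.98%, 5.86% and 4.70% in BHBNa_bIRI, 6.21% and 10.2% in bIRI, and 8.45%, 7.95% and 6.64% in Sham, so that BHBNa_bIRI lay below both. mt-Nd1, at 9.27%, 11.2% and 15.9% in BHBNa_bIRI, 14.7% and 17.3% in bIRI, and 10.9%, 11.8% and 12.6% in Sham, separated only bIRI from Sham. Shares of 1 total are tied, so a larger share of mt-Co1 lowers those of the other members. With mt-Co1 taken out of the total, bIRI overlapped both other groups for mt-Nd2 and mt-Nd5, overlapped BHBNa_bIRI for mt-Cytb and overlapped Sham for mt-Nd1, and the order held for mt-Nd6.

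In this composition, 2 members (mt-Co1 and mt-Co3) were higher and 6 (mt-Nd2, mt-Atp8, mt-Nd4, mt-Nd5, mt-Nd6 and mt-Cytb) lower in BHBNa_bIRI than in bIRI with no overlap. Over all genes, divided by the same mitochondrial total, 68.6% did not overlap, 1.47% higher and 67.2% lower. Between bIRI and Sham, 9 members were higher (mt-Rnr1, mt-Rnr2, mt-Nd1, mt-Atp8, mt-Atp6, mt-Nd4, mt-Nd5, mt-Nd6 and mt-Cytb) and 3 lower (mt-Co1, mt-Co3 and mt-Tp), where 25.9% of all genes were higher and 25.0% lower. Between BHBNa_bIRI and Sham, 4 members were higher (mt-Rnr1, mt-Co1, mt-Co2 and mt-Nd3) and 3 lower (mt-Nd2, mt-Nd5 and mt-Nd6), where 7.89% of all genes were higher and 64.9% lower.

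These counts depended on mt-Co1 being in the total. With it taken out, 15 members remained, and 3 (mt-Co2, mt-Co3 and mt-Tp) were higher and 2 (mt-Atp8 and mt-Nd6) lower in BHBNa_bIRI than in bIRI with no overlap, where 44.1% of all genes did not overlap, 4.58% higher and 39.5% lower. Between bIRI and Sham, 2 (mt-Nd6 and mt-Cytb) were higher and 2 (mt-Co3 and mt-Tp) lower, where 16.7% of all genes were higher and 36.3% lower. Between BHBNa_bIRI and Sham, 4 (mt-Rnr1, mt-Rnr2, mt-Co2 and mt-Nd3) were higher and 3 (mt-Nd2, mt-Nd5 and mt-Nd6) lower, where 9.12% of all genes were higher and 54.7% lower. mt-Nd6 was thus lowest in BHBNa_bIRI and highest in bIRI with either total.

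**Figure D5:**
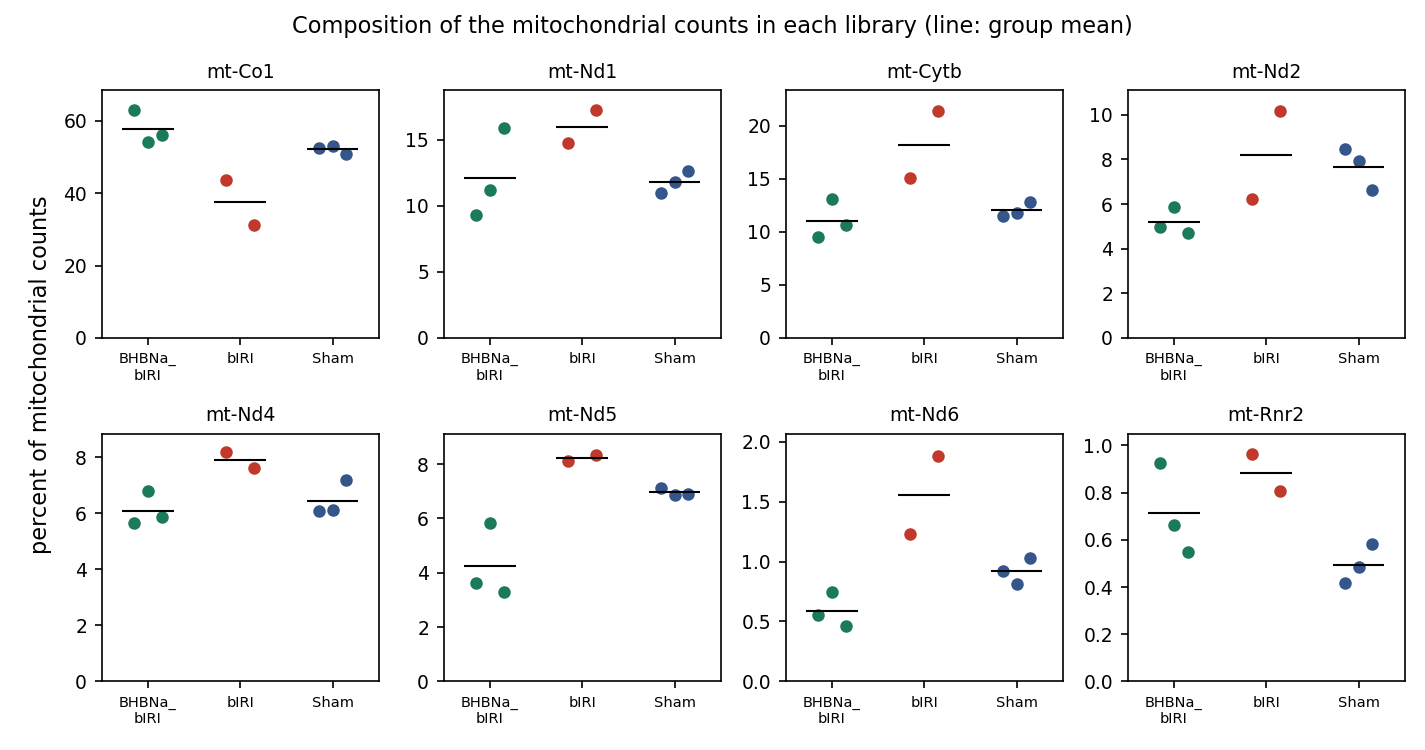
Percent of mitochondrial counts in 8 members, per library, with BHBNa_bIRI, bIRI and Sham from left to right in each panel. Points are libraries and lines are group means; mt-Co1 lies at 54.2% to 63.0% in BHBNa_bIRI, 31.3% and 43.8% in bIRI and 50.8% to 53.1% in Sham.

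Ratios between members do not depend on library size. The counts of mt-Co1 per count of mt-Cytb were 6.62, 4.14 and 5.28 in BHBNa_bIRI, 2.91 and 1.46 in bIRI, and 4.57, 4.51 and 3.97 in Sham. bIRI lay below both other groups, and BHBNa_bIRI overlapped Sham. mt-Nd1 per mt-Cytb was 0.974, 0.853 and 1.49 in BHBNa_bIRI, 0.978 and 0.805 in bIRI, and 0.951, 1.00 and 0.981 in Sham, with overlap among all groups. Per count of mt-Cytb, mt-Nd4 also overlapped among all groups. mt-Nd2 per mt-Cytb was 0.523, 0.448 and 0.442 in BHBNa_bIRI, 0.413 and 0.475 in bIRI, and 0.734, 0.676 and 0.518 in Sham, with bIRI below Sham and BHBNa_bIRI overlapping both. mt-Nd5 per mt-Cytb was 0.382, 0.447 and 0.311 in BHBNa_bIRI, 0.539 and 0.389 in bIRI, and 0.619, 0.584 and 0.539 in Sham, with BHBNa_bIRI below Sham and bIRI overlapping both. mt-Nd6 stood at 5.82%, 5.68% and 4.34% of mt-Cytb in BHBNa_bIRI, 8.16% and 8.76% in bIRI, and 7.99%, 6.93% and 8.01% in Sham. BHBNa_bIRI was below both other groups for this ratio of opposite strands. This did not hold against mt-Nd5, of which mt-Nd6 stood at 15.2%, 12.7% and 13.9% in BHBNa_bIRI, 15.1% and 22.5% in bIRI, and 12.9%, 11.9% and 14.9% in Sham. There BHBNa_bIRI overlapped both other groups, and bIRI lay above Sham. mt-Tp stood at 1.35%, 0.823% and 1.35% of mt-Cytb in BHBNa_bIRI, 0.668% and 0.542% in bIRI, and 1.01%, 0.990% and 0.940% in Sham, with bIRI below both other groups. The rRNAs stood at 1.79%, 1.38% and 1.21% of the protein genes in BHBNa_bIRI, 1.88% and 1.56% in bIRI, and 0.934%, 0.992% and 1.14% in Sham, above Sham in both injured groups. Against the protein genes without mt-Co1 they stood at 5.01%, 3.06% and 2.81% in BHBNa_bIRI, 3.40% and 2.29% in bIRI, and 1.99%, 2.14% and 2.34% in Sham, so that BHBNa_bIRI still lay above Sham and bIRI overlapped Sham.

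The counts of the nuclear copies varied widely between libraries. Gm28438 held 6074, 8973 and 14350 counts in BHBNa_bIRI, 4379 and 107 in bIRI, and 3263, 230 and 389 in Sham, where mt-Nd3 held 2737, 1191 and 1464 in BHBNa_bIRI, 2033 and 189 in bIRI, and 346, 375 and 539 in Sham. Thus the copy took 36.1% to 90.7% of the counts of this pair, and it differed more than 10-fold between Sham libraries. The corresponding share was 40.5% to 65.3% for Gm10925 with mt-Atp6, 21.4% to 66.0% for Gm10222 with mt-Nd4l, 18.1% to 58.1% for Gm28661 with mt-Co2, and 7.24% to 26.6% for Gm28437 with mt-Co3. For the genes copied only in part it was 0.185% to 0.550% for Gm28439 with mt-Nd4 and 0.0341% to 0.418% for Gm29216 with mt-Co1. The levels of mt-Co2, mt-Atp6, mt-Co3, mt-Nd3 and mt-Nd4l are uncertain for this reason.

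Of the 11 copies with a mean of at least 10 counts, 2 rose in BHBNa_bIRI against bIRI: Gm28661, the copy of mt-Co2, by 2.87 (SE 0.64, edgeR adjusted p = 0.0306), and Gm13340, a copy of mt-Co1 on chromosome 2 with 97.6% identity, by 2.59 (SE 0.68, edgeR adjusted p = 0.0403). Gm13340 held 2039, 2146 and 2483 counts in BHBNa_bIRI, 725 and 92 in bIRI, and 465, 582 and 750 in Sham. In bIRI against Sham, Gm10925, the copy of mt-Atp6, rose by 1.29 (SE 0.39, edgeR adjusted p = 0.0289). In BHBNa_bIRI against Sham, Gm10925 rose by 1.21, Gm13340 by 1.87, Gm29216 by 2.73, Gm28661 by 3.01 and Gm13341, a second copy of mt-Co2, by 1.29. No copy fell in any of the 3 comparisons. Over all genes 4.88% were called higher in BHBNa_bIRI against bIRI, 18.9% in bIRI against Sham and 21.3% in BHBNa_bIRI against Sham. Without bIRI 1, 7 copies rose in BHBNa_bIRI against bIRI and 5 fell in bIRI against Sham, and without bIRI 3 the counts were 2 and 0. Without any single Sham or BHBNa_bIRI library, 0 copies rose in BHBNa_bIRI against bIRI. The call of Gm10925 in bIRI against Sham was lost without Sham 1, Sham 2, bIRI 1 or bIRI 3, and the 5 calls against Sham became 2 without Sham 1, 1 without Sham 2, 3 without BHBNa_bIRI 1 and 1 without BHBNa_bIRI 3. Whether these counts came from the nucleus or from mitochondrial RNA was not tested.

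Nuclear subunit genes of the same complexes rose in BHBNa_bIRI against bIRI, as mt-Co1 did, and fell in bIRI against Sham. Both comparisons use the same bIRI libraries. Of 73 nuclear subunit genes of complexes I, III, IV and V, 29 rose and 0 fell in BHBNa_bIRI against bIRI. Over all genes 4.88% were called higher and 8.65% lower. In bIRI against Sham, 0 rose and 36 fell, where 18.9% of all genes were called higher and 16.2% lower. In BHBNa_bIRI against Sham, 6 rose and 14 fell, where the shares were 21.3% and 22.2%. Of the whole table, 0 genes were called higher in BHBNa_bIRI against bIRI with length and GC trends taken out or with the replicate block. With only its own groups fitted the number was 1. The 29 became 0 without Sham 1, Sham 2, BHBNa_bIRI 1 or BHBNa_bIRI 3, 19 without Sham 3, 4 without bIRI 3 and 53 without bIRI 1, where 2 fell, and the 36 became 18 without Sham 3. In BHBNa_bIRI against Sham the rises became 1 without Sham 1, Sham 2 or BHBNa_bIRI 3, 2 without BHBNa_bIRI 1, 10 without BHBNa_bIRI 2 and 12 without bIRI 1 or bIRI 3, and the falls ran from 10 to 18. The median log2 fold change was 0.84, -0.85 and 0.11 in these comparisons, given in the same order. The nuclear complex I genes were taken by symbols starting with Ndufa, Ndufb, Ndufc, Ndufs or Ndufv, with Ndufaf excluded. This choice by symbol, and so the 73 genes, may hold some that are not complex I subunits. By complex, 18 of 38 complex I genes, 2 of 9 complex III genes, 1 of 12 complex IV genes and 8 of 14 complex V genes rose in BHBNa_bIRI against bIRI. Their medians were 0.90, 0.68, 0.79 and 0.92, beside the 0.74 of the mitochondrially encoded complex I genes and the 2.12 of those of complex IV. That 2.12 is the value of mt-Co2 alone, which was not called, with mt-Co1 at 1.72 and mt-Co3 at 2.88. Summed, the nuclear subunit genes measured 20033, 15880.0 and 22715 CPM in BHBNa_bIRI, 13611 and 10350 CPM in bIRI, and 23583, 24674 and 27879 CPM in Sham.

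The balance of mitochondrial to nuclear subunits separated the 3 groups. Counts of mitochondrial protein genes per count of nuclear subunit genes were 12.1, 14.8 and 15.9 in BHBNa_bIRI, 10.3 and 10.998 in bIRI, and 5.09, 4.70 and 5.31 in Sham. Without mt-Co1 the ratio was 4.34, 6.67 and 6.83 in BHBNa_bIRI, 5.73 and 7.50 in bIRI, and 2.38, 2.18 and 2.58 in Sham, so that the injured groups overlapped and both lay above Sham. mt-Co1 per nuclear complex IV subunit count was 33.8, 36.998 and 38.8 in BHBNa_bIRI, 21.2 and 17.5 in bIRI, and 17.4, 15.7 and 15.3 in Sham, with no overlap. The summed level of 16 nuclear genes that mark mitochondrial content, such as Vdac1 and Tomm20, was 4040, 3560 and 3705 CPM in BHBNa_bIRI, 3873 and 3439 CPM in bIRI, and 6796, 6503 and 6326 CPM in Sham. It overlapped between the injured groups and was lower in both than in Sham.

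Of 51 tested nuclear genes that serve mitochondrial gene expression, 1 rose and 2 fell in BHBNa_bIRI against bIRI. Over all genes 13.5% were called in this comparison, 4.88% higher and 8.65% lower. Fastk, which stabilises mt-Nd6 RNA, rose by 0.85 (SE 0.18, edgeR adjusted p = 0.0297). Trmt10c, a subunit of the RNase P that frees tRNA 5′ ends, fell by 1.18 (SE 0.28, edgeR adjusted p = 0.0349), and Gfm1, an elongation factor, fell by 0.68 (SE 0.17, edgeR adjusted p = 0.0358). These 3 calls were lost without Sham 1, Sham 2, BHBNa_bIRI 1 or BHBNa_bIRI 3, those of Trmt10c and Gfm1 were kept only without bIRI 1, and in that fit there were 9 rises and 9 falls. In bIRI against Sham, 18.9% of all genes were called higher and 16.2% lower. Of the 51 genes, 2 rose and 22 fell in that comparison, against 9 and 4 without normalization factors. Among them were Pnpt1, an RNA-degrading enzyme, at 0.76, Ssbp1, the single-stranded DNA-binding protein, at 0.70, Tufm, an elongation factor, at -1.38, Hsd17b10, another RNase P subunit, at -1.22, and Mto1 and Gfm2, of tRNA modification and ribosome recycling, at -1.15 and -1.09.

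In BHBNa_bIRI against Sham, 3 of these genes rose and 27 fell, where 21.3% of all genes were called higher and 22.2% lower. Ssbp1 rose by 0.86, Rexo2, which clears short RNAs, by 0.68 and Rnaseh1, which removes RNA from hybrids with DNA, by 0.53. The largest falls were those of the translation factors Mtrf1, at -1.66, and Gfm1, at -1.59, the DNA polymerase subunit Polg2, at -1.50, and Taco1, a translation activator of mt-Co1, at -1.40. The transcription genes Tfam and Polrmt, the packaging factor and the RNA polymerase of mitochondrial DNA, fell by 0.72 (SE 0.17) and 0.62 (SE 0.15). The falls numbered 22 to 28 as single libraries were left out. The medians were -0.06, -0.55 and -0.57 for BHBNa_bIRI against bIRI, bIRI against Sham and BHBNa_bIRI against Sham.

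Some markers of other cells also differed between the groups. Over all genes 4.88% were called higher and 8.65% lower in BHBNa_bIRI against bIRI. In that comparison no marker of distal convoluted tubule, principal or intercalated cells, podocytes, endothelium or fibroblasts and pericytes was called. The same held for markers of macrophages, T and B cells, red blood cells and injured tubule. The summed level of 3 tested neutrophil markers was 34.3, 57.7 and 37.03 CPM in BHBNa_bIRI, 9.17 and 4.17 CPM in bIRI, and 1.32, 0.753 and 1.65 CPM in Sham, and 3 of 3 rose in BHBNa_bIRI against bIRI, but 0 without Sham 1, Sham 2, BHBNa_bIRI 1 or BHBNa_bIRI 3 and 1 without bIRI 3 or BHBNa_bIRI 2. The summed level of 4 markers of the thick ascending limb, a segment rich in mitochondria, was 837, 270 and 718 CPM in BHBNa_bIRI, 1508 and 4266 CPM in bIRI, and 3098, 3349 and 1816 CPM in Sham, and 3 of 4 fell in BHBNa_bIRI against bIRI, a count that was also 3 without bIRI 1, but 1 without Sham 3 and 0 without any other single library. Of the 6 proximal tubule markers, 0 rose and 1 fell in that comparison. The part of these shifts in the levels of mitochondrially encoded genes was not tested.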

How the data were processed

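Kidney RNA libraries were made with oligo(dT) capture and random priming, per the labels' protocols. The authors deposited whole-number counts per gene and library. HISAT2, featureCounts (Subread), DESeq2 and the mm10 build are named without versions in the submitters' processing notes. The annotation, the strand setting and the handling of reads with several alignments are not given in the sources used here. Total counts per library set the precision of shares, and exact intervals cover counting error only, as reads without molecular identifiers are not independent molecules.

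Gene names, coordinates and sequences came from GENCODE M21 (GRCm38), which gave symbols for 29220 of 29678 identifiers. From the deposited counts, edgeR 4.0.16 (R 4.3.3; TMM, filterByExpr, robust quasi-likelihood fit) was fitted to 8 libraries in 3 groups, with Benjamini-Hochberg adjustment over 17967 genes and a threshold of 0.05. bIRI then has 2 libraries, so the spread was shared over all groups. CPM uses TMM-scaled library sizes. Shares, ratios and composition were taken from counts. Nuclear copies were found with blastn 2.17.0 among annotated transcripts (at least 95% identity over at least 100 bases). Members, lists and comparisons were chosen with earlier results of these data known. All tested members are named, nuclear copies with a mean of at least 10 counts, and up to 4 called machinery genes per direction and comparison. The shares within the mitochondrial total and of the library were planned with exact permutation tests, which cannot pass 0.05 here. The steps were tested on simulated data. Alternatives were DESeq2 1.42.0, other scalings, filters, sets of libraries, a replicate block and length and GC trends. Recounts of the nuclear lists and copies under them were chosen after seeing the data.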

Additional observations from a re-analysis of the deposited data

How the results depend on the processing

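Of the 16 members tested, 3 were called in BHBNa_bIRI against bIRI. The number was 8 with DESeq2, 5 with a filter of 1 CPM in 3 libraries, 8 with all 9 tables, and 0 with only the groups compared, with length and GC trends taken out, and with the replicate block. With each Sham or BHBNa_bIRI library left out in turn it ran from 0 to 3. Over all genes that comparison had 2431 calls among 17967 genes. The number was 4441 of 17603 with DESeq2, 2802 of 14238 with the filter of 1 CPM and 5847 of 17605 with all 9 tables. It was 1 with only its own groups, 0 with the replicate block and 2 with length and GC trends taken out. In bIRI against Sham, 6303 of 17967 genes were called. Of the same 17967, 6419 were called with upper-quartile factors, 7030 without factors and 4581 with the replicate block. The calls were 7198 of 17952 with DESeq2, 6403 of 29045 without a filter, 5886 of 14238 with the filter of 1 CPM and 8433 of 17605 with all 9 tables. There 0 members were called, and the number was 4 with DESeq2, 2 with upper-quartile factors, 7 without factors and 1 without a filter. It was 2 with the filter of 1 CPM, 2 with the replicate block (mt-Atp8 higher and mt-Co3 lower) and 3 with all 9 tables. With single libraries left out it ran from 0 to 3. For BHBNa_bIRI against Sham, with 12 called, it was 4 with length and GC trends taken out and ran from 4 to 11 with single libraries left out. The cause was not tested. The differences in mitochondrial share kept their direction with the protein genes alone, without mt-Co1, without the rRNAs, with the members that have no near-identical nuclear copy, with both other denominators, with all 9 tables and with single libraries left out. Between BHBNa_bIRI and bIRI the difference was 1.23 points without mt-Co1 and 0.60 points with the members that have no near-identical copy. In both cases these groups overlapped. The complex IV genes taken alone differed by -0.28 points between bIRI and Sham.

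The replicate block gave 0, 2 and 10 called members in the comparisons in this order. Same-numbered libraries did not deviate together: correlations of their deviations from group means were 0.0234, 0.0208 and 0.0675 between Sham and BHBNa_bIRI, -0.0640 and -0.206 between Sham and bIRI, and 0.0925 and -0.0451 between bIRI and BHBNa_bIRI. The numbers were not taken as pairs.

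Log2 fold changes of members changed sign 8 times with length and GC trends taken out, 2 times without factors and 8 times with single libraries left out. The only one of these called in the reported fit was mt-Tp in BHBNa_bIRI against Sham, at -0.24 with the trends taken out. Without mt-Co1 in the mitochondrial total, the difference in share changed sign for 5 members in BHBNa_bIRI minus bIRI (mt-Rnr1, mt-Rnr2, mt-Nd1, mt-Nd3 and mt-Nd4), 4 in bIRI minus Sham (mt-Nd2, mt-Nd4l, mt-Nd4 and mt-Nd5) and 2 in BHBNa_bIRI minus Sham (mt-Nd4 and mt-Cytb). Those whose groups did not overlap in the full total became 1.63 points for mt-Nd4 in BHBNa_bIRI minus bIRI, and -0.64 points for mt-Nd4 and -1.29 points for mt-Nd5 in bIRI minus Sham. With 1 bIRI library left out, the lone library was assumed to vary like the other groups. The table of bIRI replicate 2 adds no measurement of its own, so counts with all 9 tables overstate the number of libraries. Members at low counts, mt-Atp8 first, and the pairs with nuclear copies limit what single genes can show at this depth.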
